A study of Homo sapiens with 36 samples.

Results

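The genes described here are the nuclear genes of oxidative phosphorylation, chosen by their symbols: those that begin with NDUF, SDH, UQCR, COX or ATP5 and name subunits of the respiratory chain complexes or of ATP synthase, with at least 1000 counts summed over 36 RNA-seq libraries. Of 28516 gene symbols in the count table, 84 matched the symbol pattern and 76 reached the threshold. These 76 members hold 36 genes of complex I, 4 of complex II, 9 of complex III, 10 of complex IV and 15 of complex V, and 2 that match by name but encode no subunit, ATP5S and ATP5SL. Summed counts and the symbol chose the members, so that their abundance is given as a description. Just inside the threshold stood UQCRHL, with 7070 counts, ATP5S, with 7346, and NDUFS7, with 9124. Just outside stood COX6B2, with 353 counts, and the pseudogene ATP5EP2, with 73. The other symbols outside were UQCRBP1, COX8C and ATP5L2, with 38, 24 and 11 counts, and COX7A1, COX7B2 and COX6A2, which had 0 counts. The pattern passes over some subunits with other spellings, among them COX4I1, CYC1 and NDUFAB1, and the subunits encoded in mitochondrial DNA were not analysed here.

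The libraries came from cultured human neural stem cells (hNSC), a commercial line, 48 h after lentiviral infection, with 6 conditions of 6 libraries. CRISPR-activation of MEIS1 (MEIS1-OE) or MEIS2 (MEIS2-OE) and its non-targeting control (ctrl-OE) used an inactive Cas9 fused to an activator, a helper activator and a guide, each on its own virus. CRISPR/Cas9 knockout of MEIS1 (MEIS1-KO) or MEIS2 (MEIS2-KO) and its non-targeting control (ctrl-KO) used a single vector with Cas9 and guide, with guides mixed for each gene, so that a knockout library is a mixed population and not a clone. No source used here states that the libraries of a condition came from separate cultures, and p-values then measure only the spread between these libraries. Library totals ran from 15429985 to 22940493 counts. MEIS1 stood at 310.2 ± 14.3 CPM (normalised counts scaled to library size; SD, n = 6) in MEIS1-OE, 17.8 ± 1.10 in ctrl-OE, 25.7 ± 1.66 in ctrl-KO and 8.96 ± 1.74 in MEIS1-KO. MEIS2 ran from 792.7 to 852.0 CPM in MEIS2-OE and stood at 22.6 ± 1.23 in ctrl-OE, 25.8 ± 1.58 in ctrl-KO and 12.1 ± 0.936 in MEIS2-KO. The neural stem cell markers were present, with NES between 823.3 and 2115 CPM and SOX2 between 86.4 and 322.1 CPM over all libraries.

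Oxidative phosphorylation couples the oxidation of NADH and succinate to the synthesis of ATP across the inner mitochondrial membrane. Complex I takes electrons from NADH and complex II from succinate, complex III passes them to cytochrome c, and complex IV hands them to oxygen. Complexes I, III and IV pump protons out of the matrix, and complex V, the ATP synthase, makes ATP as the protons return. Most subunits are encoded in the nucleus, made in the cytosol and imported, whereas a small core is encoded in the mitochondrial genome. Neural stem cells rely on glycolysis to a large extent, and oxidative metabolism increases as they become neurons.

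Promoters of these genes are known for binding sites of NRF1 and of ETS family factors. To show what the genes share outside the expression values, RefSeq promoter windows (GRCh38.p14, 250 bases before the annotated start and 50 from it on) were searched on both strands for 8 short motifs. A window was found for 61 of the 76 members, and 8 of these had several starts listed. The NRF1 motif, of 10 letters, was in 15 of the 61 members (24.6%), against 7.0% of 27305 symbols with a window and 13.7% of the 9977 that had at least 1000 counts. The ETS motif, CCGGAAG, was in 19 members (31.1%), against 12.2% of all symbols and 2292 of the 9977. The YY1 motif, of 11 letters, was in 4 members (6.6%), against 1.0% and 2.5%, and the cAMP response element, TGACGTCA, in 5 (8.2%), against 2.2% and 4.0%. The GC box, GGGCGG, was in 62.3% of members, against 48.3% and 77.9%. The MEIS core motif, TGACAG, was in 12 members (19.7%), a share close to the 18.6% of all symbols and the 17.5% of those with at least 1000 counts. CCAAT was in 34.4% of members, against 39.7% and 43.8%, and TATAAA in 9.8%, against 3819 of all 27305 symbols and 7.9% of those with at least 1000 counts. Matches of different motifs overlapped in 1 member. The 150 bases before the start are printed for SDHB and NDUFA6, which had the highest and lowest values between the control conditions among members with 1 listed start, for NDUFB2, which was higher in MEIS1-OE, and for SDHD, which holds both the NRF1 and the ETS motif. Capitals mark any of the 8 motifs on either strand.

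SDHB (chr1:17054033-17054182, minus strand): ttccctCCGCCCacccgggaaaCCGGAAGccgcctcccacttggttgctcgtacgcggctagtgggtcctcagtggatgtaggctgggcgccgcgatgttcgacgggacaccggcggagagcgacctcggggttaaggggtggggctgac

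NDUFA6 (chr22:42090773-42090922, minus strand): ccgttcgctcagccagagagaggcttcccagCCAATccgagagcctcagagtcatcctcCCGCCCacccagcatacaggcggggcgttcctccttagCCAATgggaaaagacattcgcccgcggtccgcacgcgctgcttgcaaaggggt

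NDUFB2 (chr7:140696558-140696707, plus strand): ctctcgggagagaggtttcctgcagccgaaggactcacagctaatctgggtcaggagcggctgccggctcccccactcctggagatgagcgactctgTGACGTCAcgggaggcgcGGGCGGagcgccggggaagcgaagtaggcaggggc

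SDHD (chr11:112086723-112086872, plus strand): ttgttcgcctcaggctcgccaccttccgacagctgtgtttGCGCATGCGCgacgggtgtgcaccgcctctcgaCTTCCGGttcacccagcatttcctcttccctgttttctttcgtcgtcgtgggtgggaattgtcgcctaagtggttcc

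SDHB carried a GC box and an ETS motif in these bases, NDUFA6 a GC box and a pair of CCAAT boxes, NDUFB2 a cAMP response element and a GC box, and SDHD the NRF1 and ETS motifs. A match is a run of letters and was not tested as a binding site.

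The members were abundant and unequal. Their summed counts spanned 77.2-fold, from UQCRHL to ATP5B, the catalytic beta subunit of ATP synthase, which had 545829 counts. ATP5A1, its alpha partner, had 451282 counts and ATP5G2, a gene for the membrane rotor subunit c, 205205. To compare levels between genes, CPM were divided by the length of the union of each gene's exons. On that scale the median member of complex IV stood at 81.8 CPM per kb, that of complex V at 56.8, that of complex III at 27.1, that of complex II at 17.2 and that of complex I at 16.4. With the length of the canonical transcript the medians were 192.1, 156.2, 41.3, 45.2 and 72.3 in the same order, so that complexes IV and V stayed above the others while the order of complexes I, II and III changed. Among complex I genes NDUFS5 was highest per kb of exon, at 321.1 CPM, followed by NDUFA1, at 154.9, and NDUFA8, at 78.6, and NDUFS7 was lowest, at 1.66. In complex II the order was SDHC, at 55.0 CPM per kb, SDHB, at 17.8, SDHD, at 16.6, and SDHA, at 14.7. In complex III UQCRH led with 121.7 CPM per kb, before UQCR10, at 75.5, and UQCRC1, at 56.9, and its copy UQCRHL was lowest, at 4.47. In complex IV COX8A had 240.5, COX7C 112.3 and COX6A1 97.4 CPM per kb, and COX7B had 31.6. In complex V ATP5B had 334.8, ATP5C1, the gamma subunit, 84.0 and ATP5G2 72.3 CPM per kb, and ATP5D, the delta subunit, had 6.91. The order within complexes also depended on the length used. With the canonical transcript complex II ran SDHC, SDHA, SDHB and SDHD. NDUFV3 was then lowest in complex I, UQCRB lowest in complex III, COX7C highest in complex IV and ATP5G2 highest in complex V. UQCRHL is nearly identical to UQCRH, and the counts of both depend on how reads that match both were treated. That treatment is not given in the sources used here. In the annotation, 47 members had pseudogenes named after them, 25 had exons that overlapped another gene on the same strand and 28 on the opposite strand. Whether the counting used the strand is not given in the sources used here.

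**Figure D1:**
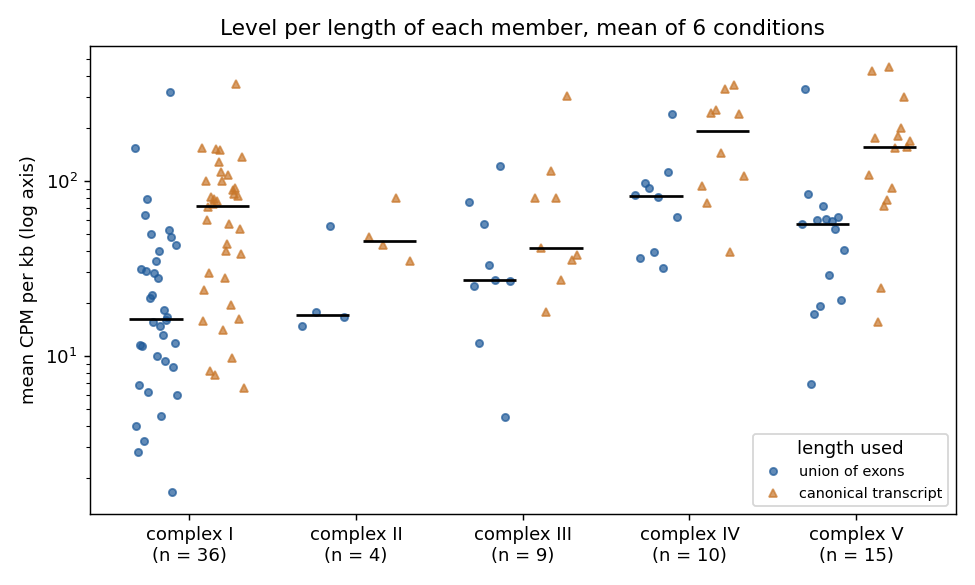
Mean level of each member over the 6 conditions in CPM per kb (log axis), by complex, with the union of exons (circles) or the canonical transcript (triangles) as length and lines at the medians. Complexes IV and V have the highest medians with either length, 81.8 and 56.8 CPM per kb of exon union.

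For most isoform pairs 1 form carried the counts. COX6A2 and COX7A1, the heart and muscle forms of their subunits, and COX7B2 had 0 counts in 36 libraries, against 94791 for COX6A1, 113373 for COX7A2 and 69631 for COX7B, and COX8C had 24 against 86086 for COX8A. COX6B2, the testis form, had 353 counts against 89909 for COX6B1. COX6B2 nevertheless differed between the systems, with a median of 0.819 CPM in ctrl-OE (lowest 0.655, highest 1.03) and 0.180 in ctrl-KO (lowest 0.116, highest 0.262), without overlap. ATP5G1, ATP5G2 and ATP5G3 encode the same mature subunit c and stood at 50.5, 282.1 and 234.8 CPM on average over the 6 conditions. ATP5L2 had 11 counts against 127591 for ATP5L, another membrane subunit of ATP synthase.

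The share of a library's counts that fell on the 76 members separated the activation from the knockout system. It ran from 0.832% to 0.867% in ctrl-OE (median 0.846%), from 0.812% to 0.868% in MEIS1-OE (median 0.839%) and from 0.832% to 0.893% in MEIS2-OE (median 0.839%). In ctrl-KO it ran from 0.725% to 0.744% (median 0.739%), in MEIS1-KO from 0.724% to 0.763% (median 0.741%) and in MEIS2-KO from 0.727% to 0.819% (median 0.745%). Only MEIS2-KO replicate 1, the shallowest library of all 36, reached into the range of the activation libraries. The share on complex I alone averaged 0.234% ± 0.00372 in ctrl-OE and 0.197% ± 0.00244 in ctrl-KO (SD, n = 6), and that on complex V 0.333% ± 0.00716 and 0.290% ± 0.00307. On the scale of normalised CPM, where libraries were scaled by the trimmed mean of M values (TMM), the gap was narrower. The members together took 8020 ± 214.2 CPM in ctrl-OE and 7725 ± 118.0 in ctrl-KO. TMM factors ran from 1.02 to 1.08 in ctrl-OE and from 0.936 to 0.965 in ctrl-KO, so that part of the difference in shares was taken up by the scaling.

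**Figure D2:**
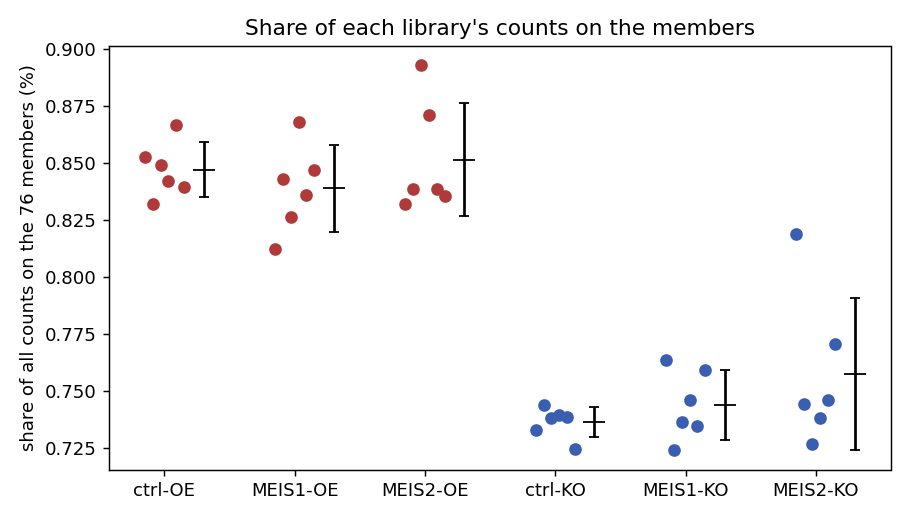
Share of each library's counts that fell on the 76 members, in percent, with 1 point per library (red activation, blue knockout) and the mean ± SD of 6 libraries beside it. The axis does not start at 0; the 18 activation libraries lie at or above 0.812% and the knockout libraries at or below 0.771% except for MEIS2-KO replicate 1 at 0.819%.

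The comparison of ctrl-OE with ctrl-KO asks how far the delivery systems themselves differ, since both carry non-targeting guides. It was fitted with edgeR's quasi-likelihood test, and a gene was called at an adjusted p under 0.05. Among the members, 34 of 76 were called, 26 higher and 8 lower in ctrl-OE, and none passed 0.58 on the log2 scale. The background was broad: 51.4% of all 19689 genes tested were called, 27.5% higher and 23.9% lower, and 22.1% were called and past 0.58. Among the 13027 genes with at least 1000 counts, as all members have, 63.1% were called, against 44.7% of the members. Their median absolute log2 fold change was 0.15, against 0.26 for the same 13027 genes. The median log2 fold change was 0.09 for the members and 0.05 for all genes tested. Without TMM factors (library totals only) both medians rose, to 0.23 and 0.20, and the calls became 48 higher and 1 lower, against 55.6% of all genes called, 39.5% higher and 16% lower, so that the directions below are those on the TMM scale. Relative to the median of all genes tested the members stood 0.04 higher under either scaling. That gap was 0.06 with a stricter expression filter (filterByExpr), 0.07 with the GC offsets described further on and 0.02 without replicate 5 of every condition. The median of the 13027 genes with at least 1000 counts was lower than that of all genes tested, at 0.01 on the TMM scale. The viral systems, and anything else that differed between these sets of libraries, cannot be told apart in this comparison.

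Of the 36 complex I genes 15 were higher, 4 lower and 17 not called, and the 52.8% called was near the 51.4% of all genes tested and below the 63.1% of genes with at least 1000 counts. NDUFC1, a small accessory subunit of the membrane arm (GRCh37 chromosome 4, 140188034 to 140223705, minus strand), had a median of 47.5 CPM in ctrl-OE (lowest 45.1, highest 48.8) and of 34.1 in ctrl-KO (lowest 27.9, highest 35.8). The groups did not overlap, and NDUFC1 was 1.42-fold higher in ctrl-OE (log2 fold change 0.51 ± 0.05 SE, edgeR adjusted p = 3.44e-11). NDUFB9, NDUFB5 and NDUFB2, further accessory subunits of the membrane arm, were 1.27-fold, 1.25-fold and 1.3-fold higher. The libraries of ctrl-OE all lay above those of ctrl-KO for these 3 genes, with 72.3 to 84.2 against 60.4 to 66.5 CPM for NDUFB9, 61.8 to 67.4 against 45.1 to 55.1 for NDUFB5, and 70.1 to 78.8 against 55.4 to 59.9 for NDUFB2. NDUFA1, another accessory subunit, was 1.18-fold higher.

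NDUFA6 went the other way. This accessory subunit of the LYR family (GRCh37 chromosome 22, 42481530 to 42486888, minus strand) had a median of 74.4 CPM in ctrl-OE (lowest 70.4, highest 85.4) and of 99.8 in ctrl-KO (lowest 91.2, highest 102.3). The groups did not overlap, and the level in ctrl-OE was 0.77 times that in ctrl-KO (log2 fold change -0.38 ± 0.04 SE, edgeR adjusted p = 3.409e-09). NDUFA6 was the lone member that was called lower also with library totals only, at -0.23. Its antisense gene NDUFA6-AS1 was counted apart and stood at 1.68 ± 0.157 CPM in ctrl-OE and 1.47 ± 0.198 in ctrl-KO (SD, n = 6). NDUFA10, NDUFS5 and NDUFS4 fell by 0.16, 0.16 and 0.14 on the log2 scale, but with library totals only they stood at -0.01, -0.01 and 0.01 and were not called, and without replicate 2 of every condition NDUFS5 and NDUFS4 were at -0.12 and -0.10 and not called. Of the 7 core subunits among the members, which carry the redox centres, 3 were higher, none lower and 4 not called. With the GC offsets described further on, the core subunit NDUFV1 was called lower, at -0.21 (edgeR adjusted p = 3.081e-06), and NDUFS1 higher, at 0.15. Of the 29 accessory subunits, 12 were higher and 4 lower.

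In complex II, the succinate dehydrogenase that also serves the tricarboxylic acid cycle, the subunits parted. SDHB, the iron-sulfur subunit (GRCh37 chromosome 1, 17345159 to 17380527, minus strand), had a median of 50.6 CPM in ctrl-OE (lowest 47.7, highest 53.5) and of 36.4 in ctrl-KO (lowest 34.0, highest 39.0). The groups did not overlap, and SDHB was 1.39-fold higher in ctrl-OE (log2 fold change 0.48 ± 0.05 SE, edgeR adjusted p = 3.604e-10). The membrane anchors SDHC and SDHD were 1.15-fold and 1.14-fold higher, with SDHC overlapping in 1 library and SDHD without overlap. SDHA, the flavoprotein that oxidises succinate, fell by 0.18 on the log2 scale (edgeR adjusted p = 0.00911), from a median of 135.4 CPM in ctrl-KO (lowest 124.0, highest 143.0) to 114.3 in ctrl-OE (lowest 108.0, highest 133.6). The SDHA groups overlapped, with library totals only its log2 fold change was -0.03, and without replicate 1 or 4 of every condition it was -0.16 and -0.13 and not called. SDHA and SDHB were thus called in opposite directions on the TMM scale, whereas with library totals only SDHA was near 0 and not called. With the GC offsets described further on they were again called in opposite directions, SDHA at -0.15 (edgeR adjusted p = 0.004011) and SDHB at 0.60.

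In complex III 2 of 9 genes were called, both higher. UQCRB, a subunit near the ubiquinone site, was 1.19-fold higher (edgeR adjusted p = 0.0002616) and UQCR10 1.11-fold higher, the latter not called without replicate 1, 2 or 5 of every condition (log2 fold changes 0.14, 0.16 and 0.14). UQCRH and UQCRHL were not called, with log2 fold changes of -0.08 and -0.12 (SE 0.04 and 0.08). With the GC offsets UQCRC1 was called lower, at -0.15 (edgeR adjusted p = 1.508e-05), and UQCRFS1 higher, at 0.13. In complex IV 2 of 10 genes were called. COX7A2 was 1.16-fold higher, with a median of 158.3 CPM in ctrl-OE (lowest 151.7, highest 169.9) and of 136.1 in ctrl-KO (lowest 133.3, highest 153.3). COX8A fell by 0.19 on the log2 scale (edgeR adjusted p = 0.04409) and stood at -0.05, not called, with library totals only. Its call was also lost without replicate 1, 2, 3, 4 or 5 of every condition, with log2 fold changes from -0.21 to -0.13. With the GC offsets described further on, COX8A was called lower at -0.34 (edgeR adjusted p = 2.436e-09). COX6A1, COX6B1 and COX7B were not called, at -0.00, -0.11 and 0.10. With the GC offsets COX7B was called higher, at 0.19, as were COX5B and COX6C, at 0.17 and 0.13.

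In complex V 3 of 15 genes were called higher, 2 lower and 10 not called. The 3 genes of subunit c went different ways. ATP5G3 was 1.12-fold higher, with a median of 247.3 CPM in ctrl-OE (lowest 228.2, highest 255.7) and of 215.9 in ctrl-KO (lowest 212.1, highest 230.0). ATP5G1 fell by 0.19, from a median of 54.6 CPM in ctrl-KO (lowest 49.6, highest 59.0) to 48.3 in ctrl-OE (lowest 43.1, highest 50.8), but stood at -0.04 with library totals only. ATP5G2 was not called, at -0.07 ± 0.04 (SE), but was called lower with the GC offsets, at -0.11 (edgeR adjusted p = 0.002274). Of the other called genes, ATP5C1 was 1.11-fold and ATP5B 1.07-fold higher (ATP5B not called without replicate 1, 3, 4, 5 or 6 of every condition), and ATP5H, a subunit of the peripheral stalk, fell by 0.18 and stood at -0.03 with library totals only. ATP5S and ATP5SL, which are no subunits, were 1.15-fold higher each.

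**Figure D3:**
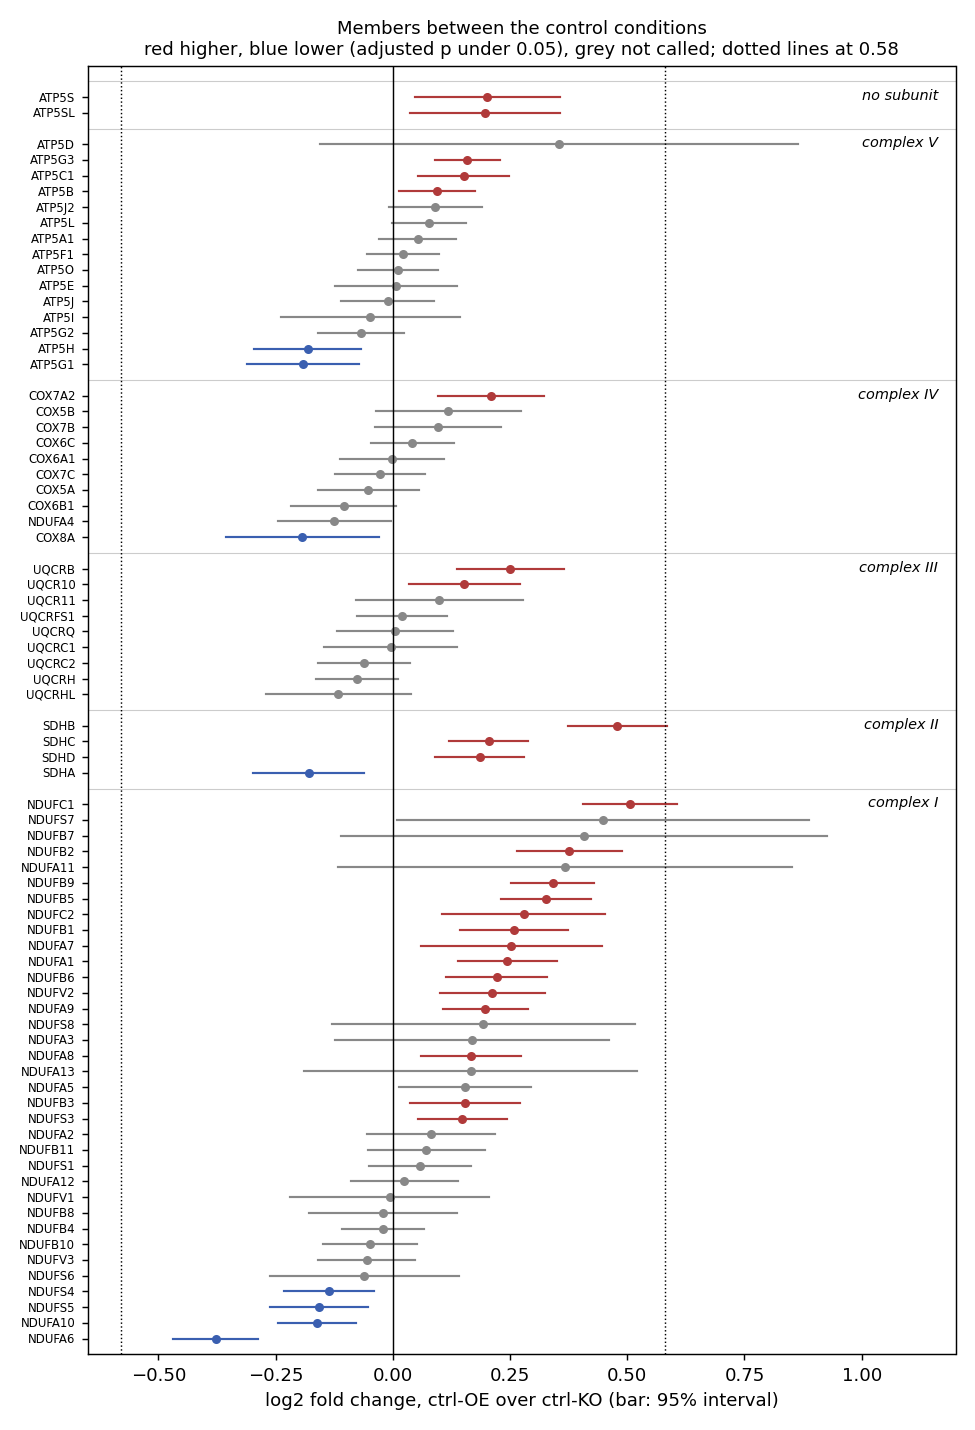
Log2 fold change of ctrl-OE over ctrl-KO for the members with their 95% intervals, by complex (1 complex I gene not shown), on the TMM scale (red called higher, blue called lower, grey not called, dotted lines at 0.58). Complex I spans the widest range of called values, from NDUFA6 at -0.38 to NDUFC1 at 0.51, and the widest intervals belong to GC-rich genes such as NDUFB7 and ATP5D.

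The gene lists beside the members had mixed directions between the control conditions, where 51.4% of all genes tested were called. Of 41 assembly factors, 11 were higher and 9 lower in ctrl-OE (48.8% called), among them NDUFAF1 (log2 fold change 0.65), an assembly factor of complex I, COA1 (-0.43) and COX14 (0.61). Of 16 transcriptional regulators, 2 were higher and 6 lower, among them NRF1 (-0.34) and PPARGC1A (-0.88), the coactivator PGC-1α, and TFEB (1.90). Of 18 genes of the tricarboxylic acid cycle and pyruvate dehydrogenase, 5 were higher and 3 lower, among them IDH3A (0.92), IDH2 (-0.63) and PDHB (0.37). Of 11 electron carriers and transporters, 2 were higher, with SLC25A4, an adenine nucleotide carrier, at 0.998, and 2 lower. Of 76 mitochondrial ribosomal protein genes, 20 were higher and 14 lower with a median of 0.05, and MRPL40 had the smallest adjusted p, at 0.62. Of 83 cytosolic ribosomal protein genes, 4 were higher and 49 lower, with a median of -0.13. Of 20 glycolysis genes, 8 were higher and 5 lower, with ENO2 at 0.84 and HK2 at -0.74. Among subunits that the pattern misses, NDUFAB1 was higher (0.18), COX4I1 and CYC1 were not called (0.01 and -0.00), and ATPIF1, the inhibitor of ATP synthase, was higher (0.28). Cell type markers moved too. The summed level of the 10 neural stem cell markers was 3128 to 4058 CPM in ctrl-OE and 4565 to 5110 in ctrl-KO, that of 6 neuron markers 382.7 to 560.4 and 926.3 to 964.5, and that of 6 astrocyte markers 104.7 to 125.6 and 246.4 to 270.1. Markers of 4 more lineages were summed too. The 6 oligodendrocyte markers gave 27.3 to 29.6 CPM in ctrl-OE and 31.8 to 38.0 in ctrl-KO, and the 4 pluripotency markers 398.0 to 440.7 and 556.3 to 664.5, both lower in ctrl-OE without overlap. The 6 neural crest or mesenchymal markers gave 297.1 to 406.3 and 315.6 to 383.7, and the 4 muscle markers 1.97 to 2.72 and 0.731 to 1.94. Several sums rested on few genes. Above 1 CPM stood 4 neuron markers, 2 (ctrl-OE) or 3 (ctrl-KO) astrocyte markers, 2 pluripotency markers and 1 oligodendrocyte marker. The part of these shifts in the members' values was not tested, and in bulk RNA a change in cell makeup cannot be told apart from a change of RNA per cell.

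The comparisons with MEIS1 or MEIS2 ask whether the transcription factors act on these genes. MEIS1-OE and MEIS2-OE share the ctrl-OE libraries, and MEIS1-KO and MEIS2-KO share the ctrl-KO libraries. In MEIS1-OE against ctrl-OE 1 of 76 members was called, whereas 9.1% of all genes tested were called, 5.52% higher and 3.58% lower. In MEIS2-OE against ctrl-OE no member was called by edgeR or by DESeq2, with 2 at an unadjusted p under 0.05, against 1.35% of all genes called. In MEIS1-KO against ctrl-KO no member was called by edgeR or by DESeq2, with 3 at an unadjusted p under 0.05, against 1.46% of all genes. In MEIS2-KO against ctrl-KO 1 member was called, against 10.0% of all genes, 4.04% higher and 5.98% lower. The members' median log2 fold changes were 0.01, 0.01, 0.04 and 0.04 in that order, and those of all genes tested -0.00, -0.01, 0.00 and -0.01. For 64, 66, 62 and 61 of the 76 members the 95% interval of the log2 fold change lay within 0.26 in both directions. The members' median absolute log2 fold changes, 0.04, 0.02, 0.05 and 0.06, were smaller than the 0.08, 0.05, 0.07 and 0.10 of genes with at least 1000 counts.

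NDUFB2 was the member called in MEIS1-OE. It had a median of 73.6 CPM in ctrl-OE (lowest 70.1, highest 78.8), of 87.0 in MEIS1-OE (lowest 76.1, highest 91.6) and of 82.0 in MEIS2-OE (lowest 71.8, highest 88.9). The groups overlapped, and the log2 fold change was 0.21 ± 0.05 SE in MEIS1-OE (edgeR adjusted p = 0.008937). Without replicate 4 it was 0.17 and not called (edgeR adjusted p = 0.103). In MEIS2-OE it was 0.15 ± 0.05 SE and not called (edgeR adjusted p = 0.3447), and MEIS1-OE and MEIS2-OE did not differ past the threshold (log2 difference 0.06, 95% interval -0.05 to 0.17). In the knockouts NDUFB2 had medians of 56.3 CPM in ctrl-KO, 57.0 in MEIS1-KO and 59.2 in MEIS2-KO, and log2 fold changes of 0.04 and 0.08 that were not called. NDUFB2-AS1, an antisense gene that overlaps it, stood at 0.734 ± 0.195 CPM in ctrl-OE and 1.04 ± 0.25 in MEIS1-OE (SD, n = 6).

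NDUFB9 was the member called in MEIS2-KO. It had a median of 63.7 CPM in ctrl-KO (lowest 60.4, highest 66.5), of 68.6 in MEIS1-KO (lowest 65.1, highest 73.3) and of 71.0 in MEIS2-KO (lowest 66.1, highest 79.8). The groups overlapped in part, and the log2 fold change in MEIS2-KO was 0.17 ± 0.04 SE (edgeR adjusted p = 0.01181). Leaving out replicate 1 or replicate 5 of every condition left 0.15 and 0.17, neither called (edgeR adjusted p = 0.0602 and 0.0548). Leaving out MEIS2-KO replicate 1 alone left 0.13, still called (edgeR adjusted p = 0.04439). In MEIS1-KO the value was 0.11 ± 0.04 SE and not called, and the knockouts did not differ past the threshold (log2 difference of MEIS1-KO over MEIS2-KO -0.06, 95% interval -0.15 to 0.03). In MEIS1-OE and MEIS2-OE NDUFB9 stood at 0.06 and 0.01, the latter of either sign with other scaling or without replicate 6.

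A correction for GC content, described further on, raised the number of calls in MEIS2-KO to 8, 7 higher and 1 lower, against 12.7% of all genes called with that correction, 6.31% higher and 6.35% lower. The higher ones were NDUFB9, NDUFB5 and NDUFA9 of complex I, UQCRB of complex III, COX6C of complex IV and ATP5H and ATP5L of complex V, with log2 fold changes between 0.12 and 0.19, and the lower one was UQCRC1, at -0.11. UQCRC1 was lower with the same correction in MEIS1-KO too, at -0.10, the single member called there against 4.4% of all genes. NDUFB2 was called with the correction in MEIS1-OE (0.18), where NDUFV1 was lower (-0.11) and 15.8% of all genes were called, and in MEIS2-OE (0.16), against 2.4%. In the MEIS2 contrast UQCRC1 was called with it (0.14), against 4.65%. MEIS2-KO replicate 1 bears on the size of the members' shift in this condition: without it their median log2 fold change in MEIS2-KO went from 0.04 to 0.01.

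The contrast of overexpression against knockout, each relative to its own control, had no member called for MEIS1 or MEIS2 by edgeR or by DESeq2, with 3 and 2 members at an unadjusted p under 0.05, against 3.48% and 2.57% of all genes called. The value nearest to the threshold was SDHD in the MEIS2 contrast (0.21 ± 0.07 SE, edgeR adjusted p = 0.08446). SDHD had a median of 54.1 CPM in MEIS2-OE (lowest 49.4, highest 55.3) and of 49.8 in ctrl-OE (lowest 48.5, highest 52.6), and of 40.3 in MEIS2-KO (lowest 39.4, highest 41.5) and of 44.4 in ctrl-KO (lowest 42.9, highest 45.5). The MEIS2-KO libraries all lay below those of ctrl-KO, whereas the activation groups overlapped, and neither step was called. MEIS1-OE against MEIS2-OE had no member called by edgeR or by DESeq2, with 3 at an unadjusted p under 0.05, against 7.75% of all genes. MEIS1-KO against MEIS2-KO had none by either tool and none at an unadjusted p under 0.05, against 0.0152% of all genes.

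**Figure D4:**
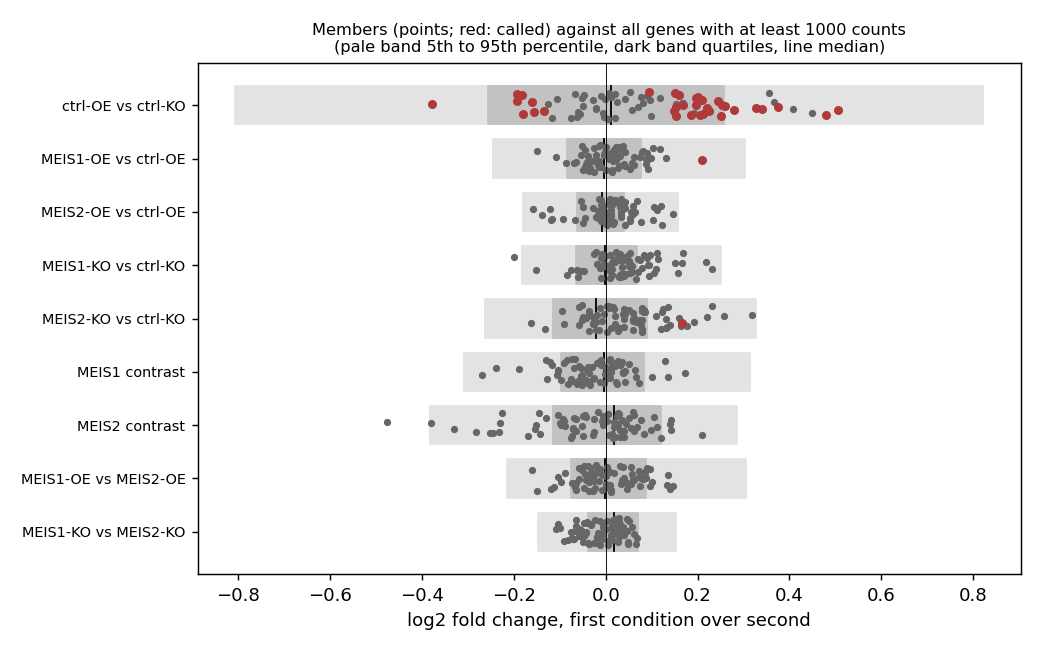
Log2 fold changes of the 76 members in the 9 comparisons (points, red where called), over bands for all genes with at least 1000 counts (pale 5th to 95th percentile, dark quartiles, line median). Red points are many in ctrl-OE against ctrl-KO, 34, and single in MEIS1-OE and MEIS2-KO.

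Other mitochondrial genes were called in some of these comparisons, in which 9.1% (MEIS1-OE), 1.35% (MEIS2-OE), 1.46% (MEIS1-KO) and 10.0% (MEIS2-KO) of all genes were called. In MEIS1-OE, VDAC1, the outer membrane channel, was higher (log2 fold change 0.28) and UCP2, an inner membrane carrier, was lower (-0.29), and none of the 41 assembly factors was called. In MEIS2-KO 4 of the 41 assembly factors were called, a share near that of all genes, of which NDUFAF4, ATPAF1 and TMEM70 were lower (-0.23, -0.20 and -0.22), as were NRF1 (-0.16) and GABPA (-0.22), both named as regulators of respiratory chain genes. COX20, an assembly factor of complex IV, was higher in MEIS2-OE (0.20). Of the 20 glycolysis genes, HK2, the first enzyme of the pathway, was lower in MEIS1-OE (-0.38), MEIS1-KO (-0.39) and MEIS2-KO (-0.52) and higher in MEIS2-OE (0.34). HK2 does not stand for the list. The 20 genes summed to 9538 to 10520 CPM in ctrl-KO, 10020 to 11940 in MEIS1-KO and 10350 to 11720 in MEIS2-KO. Under activation they summed to 8449 to 10140 CPM in ctrl-OE, 7836 to 9644 in MEIS1-OE and 8093 to 9205 in MEIS2-OE. Of 76 mitochondrial ribosomal protein genes, 2, 0, 0 and 3 were called in MEIS1-OE, MEIS2-OE, MEIS1-KO and MEIS2-KO, and of 83 cytosolic ones 1, 0, 0 and 5.

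The members differed widely in how far libraries of 1 condition spread. The SD of log2 CPM within conditions ran from 0.05 for ATP5G3 to 0.49 for NDUFB7, with a median of 0.10. The largest values belonged to NDUFB7, ATP5D (0.48), NDUFA11 (0.46), NDUFS7 (0.40), NDUFA13 (0.34) and NDUFS8 (0.31), genes with 61.6% to 69.6% GC in the canonical transcript. NDUFB7 ranged from 15.7 to 42.2 CPM in ctrl-OE (median 20.8), from 9.96 to 22.3 in ctrl-KO (median 18.0) and from 11.4 to 40.6 in MEIS1-KO (median 18.3). The median SD was 0.40 for the 7 members above 60% GC and 0.09 for the other 69. Over the 76 members the SD and the GC content had Pearson's r = 0.70 and Spearman's rho = 0.50, across genes that share the same libraries. Deviations of the 7 GC-rich members from their condition means correlated with each other at 0.95 on average, and at 0.92 or more for each pair.

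The same libraries were high or low for GC-rich genes in general. For each library, the correlation over genes between the deviation from the condition mean and GC content ran from -0.82 to 0.85. It was 0.85 in MEIS1-KO replicate 6, where NDUFB7 stood 1.09 above its condition mean on the log2 scale, and -0.82 in MEIS1-OE replicate 3, where NDUFB7 stood 1.02 below (deviation -1.02). A first principal component of the members' deviations held 76.6% of their variance. The deviations were not scaled to equal spread, so that members with a large SD, such as the GC-rich ones, weighed most. The component's loadings had a correlation of 0.78 in size with GC content, and its scores one of 0.95 in size with the libraries' GC values. Over all pairs of members the deviations correlated at only 0.18 on average, and at 0.24 with the offsets described next. With offsets for GC content fitted per library, the SD was smaller for 58 of the 76 members, and the median SD of the 7 GC-rich ones went from 0.40 to 0.16. With these offsets 48 members were called between the control conditions, 39 higher and 9 lower, against 57.2% of all genes, 31.5% higher and 25.7% lower, and NDUFC1 and SDHB passed 0.58 at 0.61 and 0.60. The 9 lower ones were NDUFA6, NDUFB10, NDUFS6, NDUFV1, SDHA, UQCRC1, COX8A, ATP5G1 and ATP5G2. NDUFS4, NDUFS5, NDUFA10 and ATP5H lost their calls, at -0.03, -0.05, -0.04 and -0.06. The counts by complex given above are thus those without offsets. The wide intervals of NDUFB7, ATP5D, NDUFA11 and NDUFS7 between the control conditions (log2 fold changes 0.41, 0.36, 0.37 and 0.45, SE 0.26, 0.25, 0.24 and 0.22) mean that differences of this size were not detectable for these genes at the spread without offsets. With the offsets their SD within conditions was smaller, at 0.25, 0.16, 0.27 and 0.14, and these genes were again not called.

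**Figure D5:**
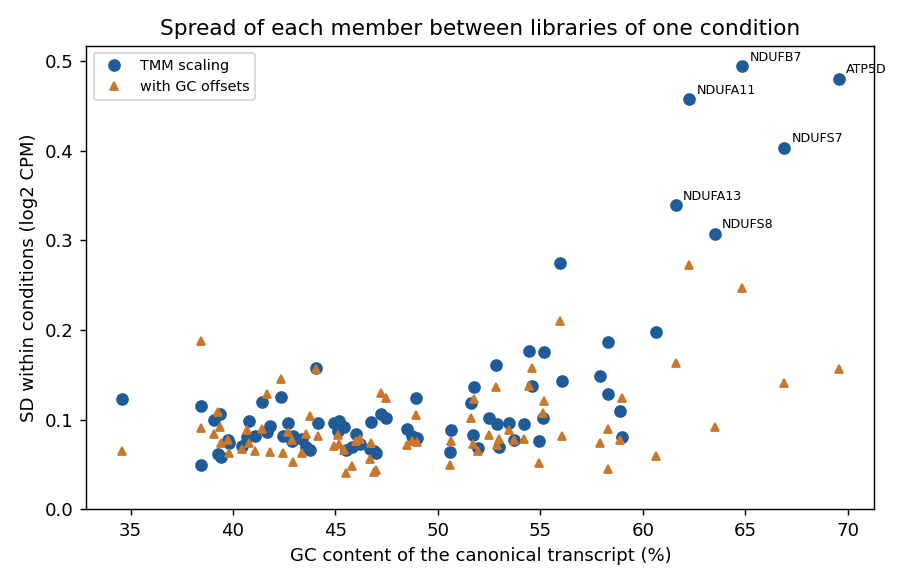
SD of log2 CPM within conditions for each of the 76 members against the GC content of its canonical transcript, on the TMM scale (circles) and with GC offsets (triangles). The circles rise above 60% GC, to 0.49 for NDUFB7, and the median of the 7 members there is 0.16 with the offsets.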

How the data were processed

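Poly-A RNA was sequenced in 36 libraries of hNSC. The authors aligned paired reads to hg19 with STAR and counted them per gene with HTSeq 0.6.0; the submitters' processing notes name Trimmomatic 0.39 and STAR 2.7.0a, the design text STAR 2.4.2a. The annotation is not given in the sources used here. The deposited values are raw counts per gene symbol, without rows of unassigned reads.

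Genes with at least 10 counts over all libraries were tested (19689) with edgeR 4.0.16 (quasi-likelihood, TMM factors, 6 conditions in 1 fit, R 4.3.3), with Benjamini-Hochberg adjustment over all genes tested. CPM are TMM-scaled. Standard errors were derived from the test's F statistic, and 95% intervals use its moderated degrees of freedom. GC offsets were a spline (5 degrees of freedom) of each library's deviation from the mean of all libraries on GC content, so that a GC trend between conditions is removed too. DESeq2 1.42.0 was an alternative. Scripts were tested on simulated data. Positions, lengths and GC content are from GENCODE v44 lifted to GRCh37; 17 members matched by an older symbol. Libraries were grouped by their titles, and replicates of a condition differed beyond counting noise (chi-square per degree of freedom 2.74 to 38.6 over 90 pairs).

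Named genes were, by rule, the 3 highest and the lowest member per complex and length, up to 8 called members per direction and comparison, the 2 smallest p per complex between the controls, isoform pairs, members at the threshold, and up to 3 called genes per other list. SDHD between MEIS2 conditions, the GC-rich genes and genes called with GC offsets were chosen after their values were seen. The members and all lists were chosen with earlier results of these data known. 1 member is not reported by name here and enters only the counts and medians over members.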

Additional observations from a re-analysis of the deposited data

Results flagged for a closer look

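In 9 of 144 groups of 6 libraries examined, 1 library stood farther from the others than Dixon's test allows; about 5% of groups do so by chance. In ctrl-KO replicate 2 stood highest for 4 genes, with COX7A2 at 153.3 CPM (others 133.3 to 137.9), NDUFA10 at 91.2 (others 77.3 to 82.1), NDUFS5 at 194.2 (others 173.4 to 181.1) and SDHC at 103.2 (others 92.9 to 96.7). In MEIS1-KO replicate 6 stood highest for SDHA, at 161.1 CPM (others 126.7 to 139.5), and for UQCR10, at 83.5 (others 63.7 to 69.8). The others were COX8A in ctrl-OE replicate 6, at 143.5 CPM (others 93.3 to 110.3), NDUFA10 in MEIS2-KO replicate 1, at 88.4 (others 78.0 to 81.3), and NDUFA8 in MEIS1-OE replicate 4, at 79.0 (others 65.8 to 70.7).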

How the results depend on the processing

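The number of members called between the control conditions stayed within 1.5 times the 34 reported in all alternatives run (33 to 49; 26 to 31 without 1 replicate number), and their median log2 fold change went from 0.09 to 0.23 with library totals (all genes 0.20), to 0.12 with GC offsets and to between 0.06 and 0.09 without 1 replicate number. In MEIS1-OE 1 call became 0 to 1 without 1 replicate number and 2 with GC offsets. In MEIS2-KO 1 call became 2 with RLE, upper-quartile or no factors, filterByExpr or DESeq2 (NDUFA9 joining), 3 with the conditions compared alone, 8 with GC offsets, and 0 to 1 without 1 replicate number (0 without replicate 1 or 5). With GC offsets 1 member was called in MEIS2-OE (NDUFB2), 1 in MEIS1-KO and 1 in the MEIS2 contrast (UQCRC1 both). SDHD was the 1 call in the MEIS2 contrast with the conditions compared alone. Without 1 replicate number, 0 to 1 were called in the MEIS2 contrast and 0 to 3 in MEIS1-OE against MEIS2-OE, both highest without replicate 3 (SDHD, and SDHD, NDUFA5 and ATP5G2). Signs reversed for NDUFS4 between the controls with library totals (0.012) and for NDUFB9 in MEIS2-OE with library totals (-0.00046) and without replicate 6 (-0.0014 to 0.025 over the replicate numbers left out). Over 31 pairs of a member and a comparison, 488 values under alternatives kept direction and call, 35 lost the call, 1 gained it and 3 changed sign; ATP5B lost its call in 9 alternatives, COX8A in 6. No source states that a replicate number marks a shared culture or day, and the numbers were not treated as pairs: deviations correlated at 0.12 on average for equal numbers, above 0.1 in 50 of 90 pairs, and at -0.03 for other numbers. Deviations from a condition mean cancel out over its replicates, so that the value for other numbers largely follows from that for equal numbers. 15 of 36 libraries correlated best with their own number, a hint from the data of something shared that was not tested against chance. With the replicate block 33 members were called between the controls, 25 higher and 8 lower, 1 in MEIS1-OE and 1 in MEIS2-KO. A share without mitochondrial genes was not run; without the 10 most counted genes the mean share was 0.903% in ctrl-OE and 0.787% in ctrl-KO. GC offsets, the canonical length and leaving out MEIS2-KO replicate 1 alone were chosen after seeing the data. The lowest count of a member in a library was 118; how far depth limited the tests was not tested.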
